A study of Homo sapiens with 37 samples.

Results

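Homologous recombination mends breaks through both strands of DNA by copying the intact sister chromatid, so it works mainly in cells that have replicated their DNA and are preparing to divide. BRCA1 and its partner BARD1 help to trim the broken ends, BRCA2 with PALB2 acts on the trimmed DNA, and the Fanconi core complex with the enzyme UBE2T attaches ubiquitin to FANCD2 and FANCI to start the repair of DNA crosslinks. The kinases ATM and ATR sense damage and signal through CHEK2 and CHEK1, and many genes of these pathways are known to be transcribed mainly as cells enter and pass through S phase. The genes described here are 35 of these repair genes, taken as a list by their function, of 57773 genes in the files, and all 35 were found and passed the filter on low counts in every comparison. They comprise 5 genes of the BRCA1 complex (BRCA1, BARD1, BRIP1, RBBP8 and TOPBP1), 10 genes that act around BRCA2 (PALB2, BRCA2, RAD51B, RAD51C, RAD51D, XRCC2, XRCC3, RAD51AP1, RAD54L and RAD54B) and 5 genes of end resection and unwinding (MRE11, RAD50, NBN, EXO1 and BLM). The others are 9 genes of the Fanconi core complex (FANCA, FANCB, FANCC, FANCE, FANCF, FANCG, FANCL, FANCM and UBE2T), FANCD2 and FANCI, and 4 checkpoint kinases (ATM, ATR, CHEK1 and CHEK2). The question was which of them move with the genes of cell division when human cells are made senescent, and which do not.

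Total RNA, freed of ribosomal RNA, was sequenced in 37 libraries of primary human cells. Endothelial cells of the aorta (HAEC, population doubling level 4 to 6) gave 3 libraries irradiated with 4 Gy and 2 control libraries, and those of the umbilical vein (HUVEC, level 3 to 5) gave 3 irradiated with 4 Gy and 3 controls. Fetal lung fibroblasts of the strain IMR-90 gave 2 libraries irradiated with 10 Gy and 2 of late passage (level 52), both set against the same 2 libraries of proliferating cells (level 15). WI-38, another fetal lung fibroblast strain, at level 25 unless stated, was treated with doxorubicin, a drug that damages DNA (2 µg/mL for 24 h, 2 libraries against 2 untreated), or given HRAS(G12v), a mutant oncogene, on a lentivirus (2 libraries against 2 with the empty vector, both at 10 MOI and kept in puromycin at 1 µg/mL). A second set of WI-38 libraries held a repeat of the doxorubicin experiment (2 against 2 untreated), cells irradiated with 10 Gy (2 against 2 unirradiated) and cells at replicative exhaustion, called late passage here (level 53 to 55, 2 against 2 proliferating). HAEC and HUVEC were kept in media for endothelium, IMR-90 and WI-38 in DMEM plus 10% serum. Senescence itself was not measured in these libraries, the time between irradiation and harvest is not given in the sources used here, and the cultures are mixtures in which fewer dividing cells and less RNA per cell cannot be told apart. The labels do not state whether libraries of a group came from separate cultures; the p-values rest on the spread among the libraries alone, which may be technical.

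Each library held 102293388 to 370996204 counts. Those of the second WI-38 set, 12 in all, stood apart: 82% to 91.1% of their counts lay in protein-coding genes and 3.21% to 14% in mitochondrial genes, against 50.7% to 66.9% and 0.1% to 0.607% in the other 25. Levels are given as CPM, the reads of a gene scaled to library size (TMM-scaled within a set), and are not compared across sets. The biological coefficient of variation between replicates was 5.69% for HAEC, 6.94% for HUVEC and 8.41% for IMR-90, and 16.3% for the first WI-38 set and 38.1% for the second, so the same fold change was called less readily in the second WI-38 set. Of 9 endothelial markers measured, CDH5 (VE-cadherin) stood at 381 to 505 CPM in the endothelial libraries and at 0 to 2.59 CPM in the fibroblast libraries. TEK, another of the 9, did not separate the cell types, with 158 to 179 CPM in endothelial and 9.92 to 306 CPM in fibroblast libraries. Summed over 10 fibroblast markers, the level was 176 to 309 CPM in endothelial and 1500 to 15800 CPM in fibroblast libraries. Among these TWIST2 overlapped, with 1.69 to 5.26 CPM and 3.52 to 10.2 CPM. Every other endothelial and fibroblast marker measured was higher in all libraries of its own cell type than in any of the other. One group goes against its label: the IMR-90 libraries labelled proliferating had lower levels of the genes of cell division than irradiated IMR-90. In late-passage IMR-90 the median log2 fold change over these proliferating libraries was smaller, 0.242 for 50 cell-division genes against 0.73 in irradiated cells. MKI67, a marker of cycling cells, had 31.3 and 28.03 CPM in irradiated IMR-90. It had 22.4 and 17.7 CPM in late-passage and 19.8 and 17.4 CPM in proliferating IMR-90, and these 2 groups overlapped. The cause of the lower levels in proliferating IMR-90 was not tested. The IMR-90 results are therefore given apart throughout and described by the measured levels.

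To say which repair genes moved with cell division, 24 mitosis and 26 replication genes that are not among the 35 were taken as a guide. A repair gene was said to follow in a comparison when it passed the test (edgeR quasi-likelihood, adjusted p below 0.05 over all genes) in the direction taken by at least 25 of those 50 genes. The guide genes fell in irradiated HAEC and HUVEC (50 of 50 lower in each), in WI-38 after doxorubicin in the first experiment (50), HRAS(G12v) (48), irradiation (46) and late passage (35), and rose in irradiated (47) and late-passage IMR-90 (27). In late-passage IMR-90 4 of the 50 fell, and the 27 only just passed the cut of 25. Of all genes, 26.6% rose there. In the doxorubicin repeat 7 of 50 fell and none rose. The repeat thus had no direction by this rule, and 8 of the 9 comparisons remained. BARD1, BRIP1, BRCA2, RAD51AP1, BLM and FANCB followed in all 8. Among them BRCA2, RAD51AP1, BLM and FANCB lost at least 1 of these calls when 1 library was left out. FANCB in irradiated WI-38 and RAD51AP1 in late-passage WI-38 also lost theirs when the compared groups were fitted alone (edgeR adjusted p = 0.068 and 0.0681). FANCI, CHEK1, FANCA, UBE2T, FANCD2, EXO1 and RAD54L followed in 7. TOPBP1, XRCC3, BRCA1, FANCG, RAD54B and XRCC2 followed in 6, MRE11, RBBP8, FANCM, RAD51D and FANCE in 5, NBN, ATR and RAD51C in 4, and FANCL, FANCF and FANCC in 3. At the other end PALB2 followed in 2, and ATM, RAD50, CHEK2 and RAD51B in 1 each. CHEK2 moved against the guide genes in 4 of the 8 comparisons, more often than any other of the 35. These were both IMR-90 comparisons, HRAS(G12v) and irradiated WI-38. Its HRAS(G12v) call was lost when the compared groups were fitted alone (edgeR adjusted p = 0.242). RAD51D, FANCF, FANCC and ATM moved against the guide genes in 2 each, and NBN, ATR, PALB2, RAD50 and RAD51B in 1 each. For RAD51D, FANCF and FANCC these were the 2 IMR-90 comparisons. Of all genes tested, 6.09% to 26.6% were called in the direction of the guide genes in these 8 comparisons. Against that direction 5.8% to 27.1% were called. A gene that followed or opposed in 1 or 2 comparisons is therefore not set apart from other genes by that count. The 2 IMR-90 comparisons share their control libraries, so a gene that followed or opposed in one was not an independent case in the other.

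**Figure D1:**
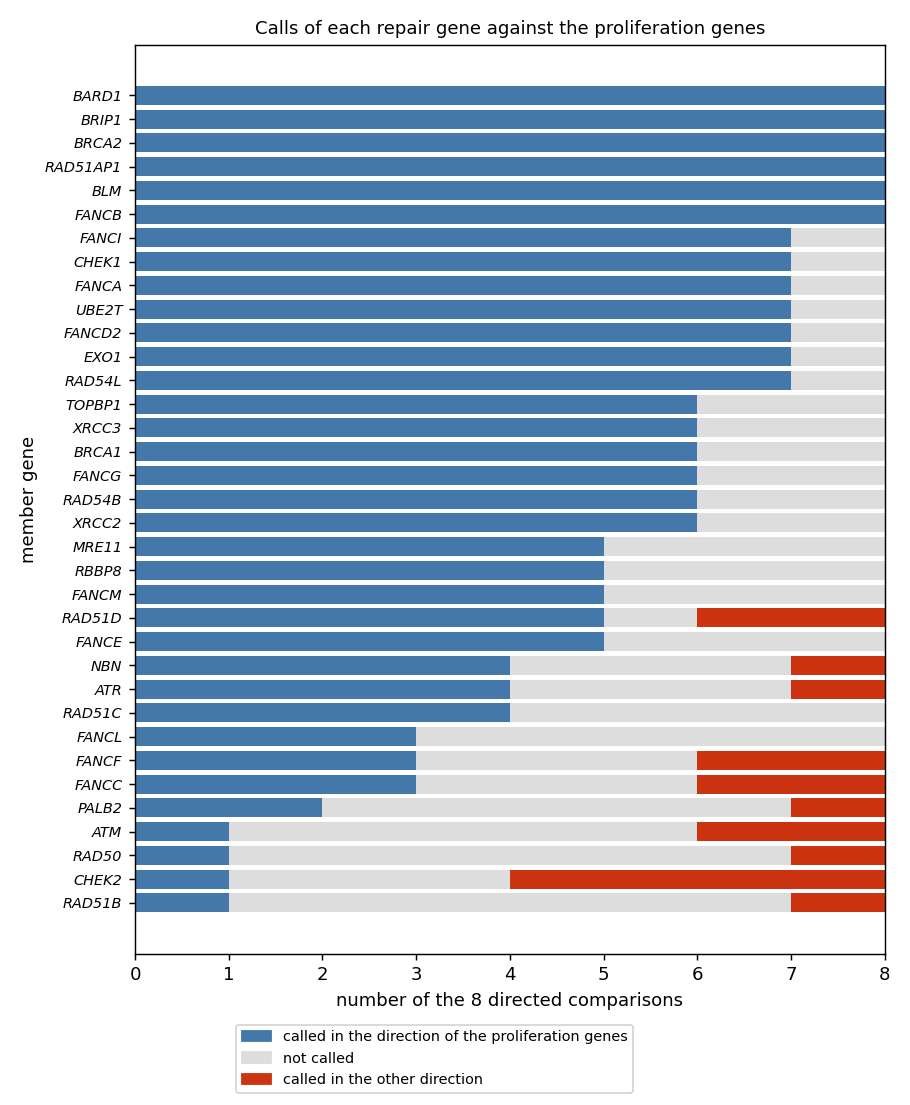
Number of the 8 comparisons with a direction in which each of the 35 repair genes followed the 50 guide genes of cell division, was not called, or was called against them (stacked bars, x axis in comparisons, 1 bar per gene). BARD1, BRIP1, BRCA2, RAD51AP1, BLM and FANCB fill all 8, and RAD50, ATM, CHEK2 and RAD51B follow in 1.

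**Figure D2:**
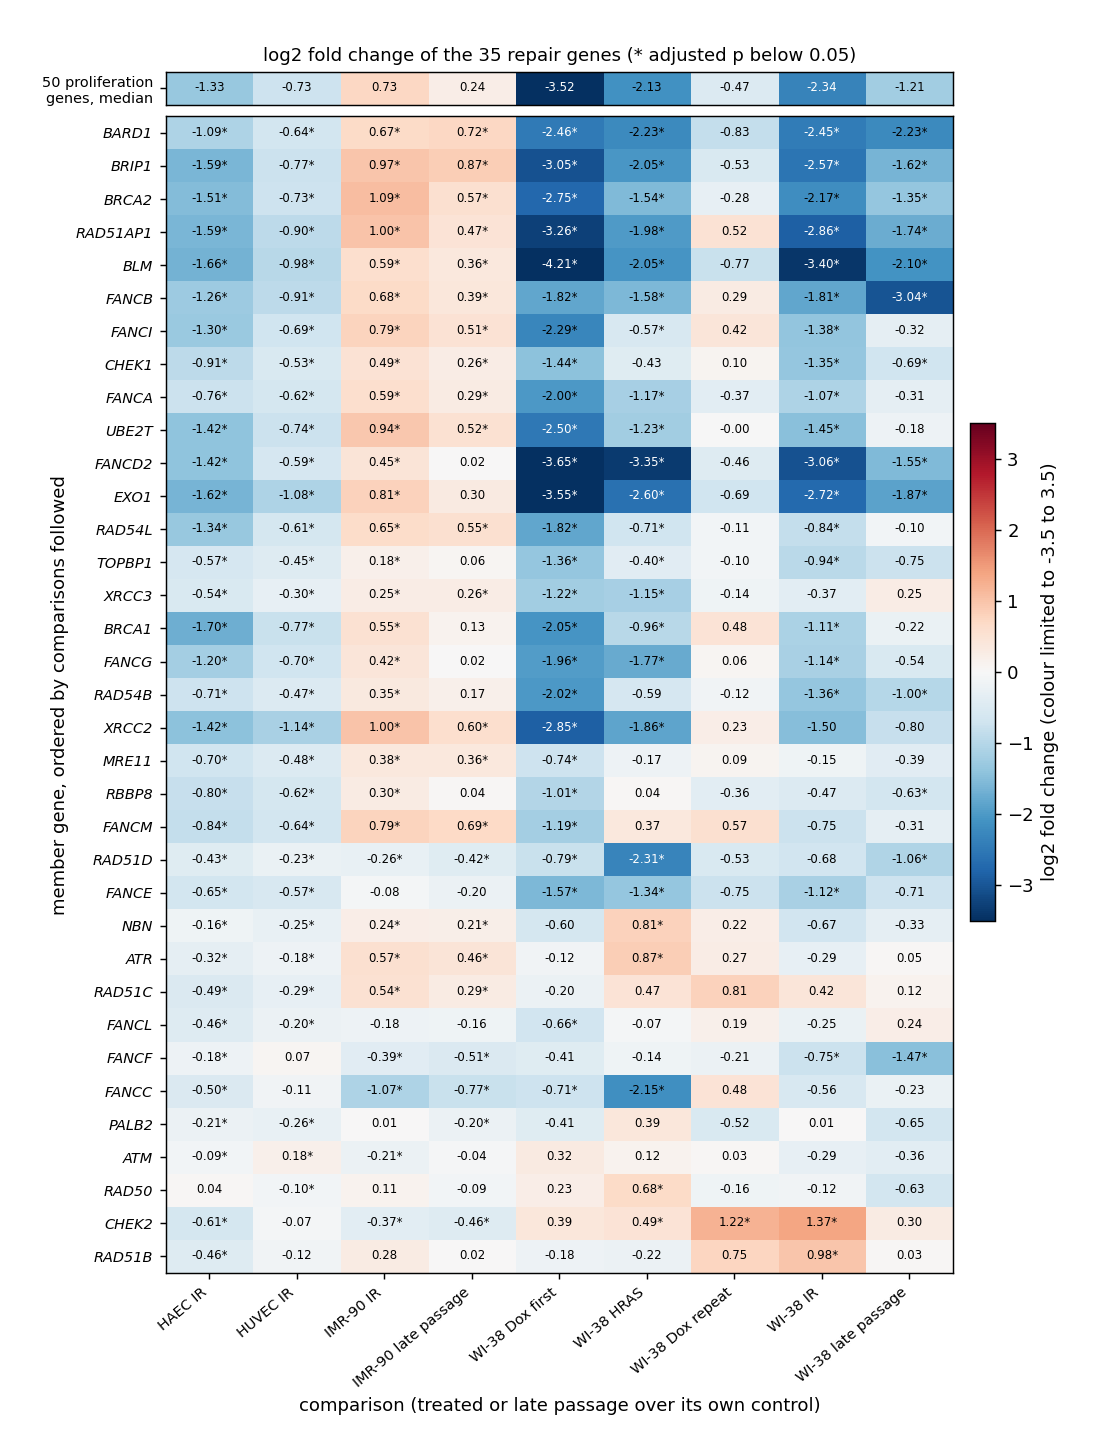
Log2 fold change of each of the 35 genes, and the median of the 50 guide genes of cell division, in the 9 comparisons (columns, each treated group over its own control), with the value printed and an asterisk where the adjusted p was below 0.05 by edgeR. The columns of HAEC, HUVEC and of WI-38 after doxorubicin, HRAS(G12v) and irradiation are mostly negative, with medians over the 35 genes of -0.76, -0.57, -1.44, -0.71 and -0.94, while the irradiated IMR-90 column is mostly positive (0.45).

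In irradiated HAEC 34 of the 35 repair genes fell and none rose, where 19.9% of all genes tested fell and 19.7% rose, and the median over the 35 was -0.76 on the log2 scale against 0.0093 over all genes. All 5 BRCA1 complex genes, all 10 genes around BRCA2 and 4 of 5 resection genes were lower. So were all 9 core complex genes, FANCD2, FANCI and all 4 kinases. Among these, FANCF lost its call without any 1 of 4 libraries, without the filter on low counts and with the DESeq2 Wald test. RAD50, part of the complex that first binds broken ends, was not called. Its log2 fold change, given here and below with its standard error, was 0.036 ± 0.041 (edgeR adjusted p = 0.539). The summed level of the 35 was 831, 869 and 861 CPM in irradiated and 1380 and 1390 CPM in control HAEC, and no library of one group reached the other. The strongest fall was that of BRCA1, with 16.5, 16.4 and 16.3 CPM in irradiated HAEC, against 53.6 and 52.7 CPM in control HAEC, a log2 fold change of -1.70 ± 0.042 (edgeR adjusted p = 1.39e-17). The smallest change among the called genes was that of ATM, the kinase activated by breaks, with 187, 202 and 196 CPM in irradiated HAEC, against 207 and 208 CPM in control HAEC (-0.088 ± 0.034, edgeR adjusted p = 0.0467). The ATM libraries did not overlap, but the call was lost without control replicate 1 or 2 or irradiated replicate 1 or 3 (adjusted p 0.119 to 0.179 by edgeR) and without the filter on low counts (0.105). The sum over endothelial markers was 1690, 1600 and 1660 CPM in irradiated and 1320 and 1320 CPM in control HAEC, with 5 of 9 markers higher and 1 lower; its part in the result was not tested.

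In irradiated HUVEC 30 of the 35 fell, where 20.1% of all genes fell, and 1 rose, where 18.6% rose, with a median of -0.57 against 0.014 over all genes. The 5 BRCA1 complex genes, 9 of 10 around BRCA2, the 5 resection genes, 7 of 9 core complex genes, FANCD2, FANCI and 2 of 4 kinases fell. The gene with the deepest fall was XRCC2, which helps recombination to begin on the trimmed DNA, with 11.2, 10.02 and 9.67 CPM in irradiated HUVEC, against 22.6, 22.3 and 23.3 CPM in control HUVEC (-1.14 ± 0.057, edgeR adjusted p = 4.58e-14). ATM was the 1 gene that rose, with 162, 157 and 159.7 CPM in irradiated HUVEC, against 135, 141 and 147 CPM in control HUVEC (0.18 ± 0.037, edgeR adjusted p = 0.000412), and its groups did not overlap. The genes not called were RAD51B, FANCC, FANCF and CHEK2. RAD50, at -0.10 ± 0.04 (edgeR adjusted p = 0.0474), lost its call without any 1 of 5 libraries (control replicates 2 and 3 and the 3 irradiated replicates, adjusted p 0.0746 to 0.216 by edgeR). Of the endothelial markers 5 of 9 rose and 2 fell, with sums of 1770, 1800 and 1810 CPM in irradiated and 1660, 1540 and 1540 CPM in control HUVEC; their part in the result was not tested.

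Irradiation lowered the repair genes less in HUVEC than in HAEC. Fitted together, the response of 23 of the 35 differed, each of them less negative or more positive in HUVEC (8.85% of all genes), and none the other way (9.11%; 1 gene at an unadjusted p below 0.05 by edgeR, 1 by DESeq2). BRIP1, a helicase that binds BRCA1, changed by -0.77 ± 0.053 in HUVEC and -1.59 ± 0.05 in HAEC, a difference of 0.82 ± 0.078 (edgeR adjusted p = 6.84e-09). BRCA2 changed by -0.73 ± 0.039 in HUVEC and -1.51 ± 0.039 in HAEC, a difference of 0.78 ± 0.053 (edgeR adjusted p = 1.29e-11). ATM differed by 0.27 ± 0.05 (edgeR adjusted p = 0.00024) and CHEK2 by 0.55 ± 0.076 (edgeR adjusted p = 4.28e-06), so genes that followed in few comparisons were among the 23. The guide genes of cell division differed in the same direction, 48 of 50, with a median difference of 0.56. The count was 15 without HAEC control replicate 1 or without HUVEC irradiated replicate 1, and 1 gene differed the other way without HAEC control replicate 1, HAEC irradiated replicate 1 or HUVEC control replicate 1. Donor and cell type cannot be told apart here.

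In irradiated IMR-90, set against libraries labelled proliferating in which cell-division genes were lower, 25 of the 35 repair genes rose (26.6% of all genes) and 5 fell (22.5%), with a median of 0.45 against -0.02 over all genes. The summed level of the guide genes was 1400 and 1410 CPM in irradiated IMR-90, 1060 and 968 CPM in late-passage IMR-90 and 867 and 866 CPM in proliferating IMR-90. All 5 BRCA1 complex genes, 7 of 10 around BRCA2, 4 of 5 resection genes, 5 of 9 core genes, FANCD2, FANCI and 2 kinases rose. Among these, TOPBP1 lost its call without any 1 of the 4 libraries, XRCC3 without either of 2 and RAD54B without 1. BRCA2 rose most, with 14.7 and 14.8 CPM in irradiated IMR-90, against 7.17 and 6.71 CPM in proliferating IMR-90 (1.09 ± 0.078, edgeR adjusted p = 4.16e-08). FANCC, a core complex subunit, fell most, with 4.50 and 3.91 CPM in irradiated IMR-90, against 8.88 and 8.79 CPM in proliferating IMR-90 (-1.07 ± 0.11, edgeR adjusted p = 2.14e-06), and its groups did not overlap. The other genes that fell were RAD51D (-0.26 ± 0.091), FANCF (-0.39 ± 0.12), ATM (-0.21 ± 0.055) and CHEK2 (-0.37 ± 0.082). The count of genes that fell was 2 without either irradiated library and 3 without proliferating replicate 2. ATM, at -0.21 ± 0.055 (edgeR adjusted p = 0.00568), lost its call without either irradiated library (adjusted p 0.0599 to 0.0714 by edgeR), and NBN, a subunit of the RAD50 complex at 0.24 ± 0.057 (edgeR adjusted p = 0.00314), without irradiated replicate 2 (0.0611). Fibroblast markers moved too: 9 of 10 fell and 1 rose, with sums of 3630 and 3690 CPM in irradiated IMR-90 and 15800 and 15000 CPM in proliferating IMR-90, and 4 of 5 epithelial markers rose, with sums of 65.1 and 68.4 CPM in irradiated IMR-90 and 13.6 and 13 CPM in proliferating IMR-90. Of 5 smooth muscle markers 3 rose and 1 fell, with sums of 278 and 291 CPM in irradiated and 125 and 120 CPM in proliferating IMR-90. Their part in the result was not tested.

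In late-passage IMR-90, against the same proliferating libraries, 18 of the 35 rose (26.6% of all genes) and 5 fell (23.5%), with a median of 0.26 against -0.039. BRIP1 rose most, with 18.2 and 20.98 CPM in late-passage IMR-90, against 10.3 and 11.1 CPM in proliferating IMR-90 (0.87 ± 0.081, edgeR adjusted p = 6.37e-07). FANCC was again the lowest, with 4.68 and 5.67 CPM in late-passage IMR-90, against 8.88 and 8.79 CPM in proliferating IMR-90 (-0.77 ± 0.11, edgeR adjusted p = 4.66e-05), and neither gene's groups overlapped. The other genes that fell were PALB2 (-0.20 ± 0.076), RAD51D (-0.42 ± 0.091), FANCF (-0.51 ± 0.12) and CHEK2 (-0.46 ± 0.083), and the share that fell was below that of all genes. BRCA1 itself, at 0.13 ± 0.092 (edgeR adjusted p = 0.259), and FANCD2, at 0.022 ± 0.074 (edgeR adjusted p = 0.836), were not called. BLM (0.36 ± 0.11, edgeR adjusted p = 0.0152) and FANCB (0.39 ± 0.11, edgeR adjusted p = 0.00764) each lost the call without 1 late-passage or 1 proliferating library (proliferating replicate 2 and late replicate 2 for BLM, adjusted p 0.0543 to 0.0867; proliferating replicate 2 and late replicate 1 for FANCB, 0.0571 to 0.0703). The count of genes that fell was 3 without proliferating replicate 2. Of 10 fibroblast markers 8 fell and 2 rose, with a sum of 5520 and 5850 CPM in late-passage cells, and 6 of 9 endothelial markers fell. Of 5 epithelial markers tested 4 rose, with sums of 72.8 and 60.8 CPM in late-passage and 13.6 and 13 CPM in proliferating IMR-90. Of 5 smooth muscle markers 3 rose and 2 fell, with sums of 277 and 356 CPM in late-passage and 125 and 120 CPM in proliferating IMR-90. Their part in the result was not tested.

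Irradiated and late-passage IMR-90 were also compared directly. In irradiated cells 13 of the 35 genes were higher than in late-passage cells (5.12% of all genes) and none was lower by the main test (5.45%; 2 genes at an unadjusted p below 0.05 by edgeR, 1 with DESeq2 after adjustment). BRCA1 had 11.7 and 12.3 CPM in irradiated IMR-90, against 9.21 and 8.74 CPM in late-passage IMR-90 (0.41 ± 0.09, edgeR adjusted p = 0.00973). FANCD2 had 15.3 and 16.4 CPM in irradiated IMR-90, against 11.5 and 12.01 CPM in late-passage IMR-90 (0.43 ± 0.073, edgeR adjusted p = 0.00201). Both genes were higher in each irradiated library than in either late-passage library. The guide genes were higher too, 44 of 50. The count of 13 was 3 without either irradiated library and 7 without late-passage replicate 2, and 7 of 10 fibroblast markers were lower in irradiated cells.

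In WI-38 treated with doxorubicin in the first experiment 26 of the 35 repair genes fell and none rose, where 13.2% of all genes fell and 13.6% rose. One gene was higher at an unadjusted p below 0.05 by edgeR and by DESeq2. The median was -1.44 against 0.015 over all genes, and that of the 50 guide genes -3.52. All 5 BRCA1 complex genes, 7 of 10 around BRCA2, 3 of 5 resection genes, 8 of 9 core genes, FANCD2, FANCI and 1 of 4 kinases, CHEK1, fell. BLM, a helicase that untangles recombining DNA, fell most, with 0.616 and 0.508 CPM in doxorubicin-treated WI-38 of the first experiment, against 10.8 and 9.97 CPM in untreated WI-38 of that experiment (-4.21 ± 0.22, edgeR adjusted p = 6.31e-08). The smallest called fall was that of FANCL, which carries the ubiquitin ligase activity of the core complex, with 10.3 and 9.49 CPM in doxorubicin-treated WI-38 of the first experiment, against 16.2 and 15.2 CPM in untreated WI-38 of that experiment (-0.66 ± 0.16, edgeR adjusted p = 0.0102). Neither gene's groups overlapped, but FANCL lost its call without untreated replicate 1 or either treated library (adjusted p 0.0564 to 0.0865 by edgeR). ATM, ATR and CHEK2 stood at 0.32 ± 0.18, -0.12 ± 0.20 and 0.39 ± 0.16 and were not called. Of 9 endothelial markers 7 fell and 1 rose, with sums of 238 and 225 CPM in doxorubicin-treated WI-38 of the first experiment and 97 and 101 CPM in untreated WI-38 of that experiment. TEK, an angiopoietin receptor that these fibroblasts also carried, made up most of those sums, with 237 and 223 CPM in treated and 92.5 and 93.4 CPM in untreated cells. Of 10 fibroblast markers 5 rose and 1 fell, with sums of 8910 and 8630 CPM in doxorubicin-treated WI-38 of the first experiment and 5130 and 5060 CPM in untreated WI-38 of that experiment. Of 5 smooth muscle markers 3 fell, with sums of 83.5 and 86.3 CPM in treated and 191 and 204 CPM in untreated cells; the part of these markers was not tested.

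Empty-vector WI-38 had lower repair genes than the untreated WI-38 of the first doxorubicin experiment. Against untreated WI-38, empty-vector cells had 27 of the 35 lower and none higher, where 21.9% of all genes were lower and 15.6% higher (no member was higher at an unadjusted p below 0.05 by edgeR or DESeq2). The median was -1.39, and 46 of 50 guide genes were lower. RAD51AP1, which promotes recombination, had 3.09 and 2.25 CPM in empty-vector WI-38, against 17.7 and 16.4 CPM in untreated WI-38 (-2.67 ± 0.18, edgeR adjusted p = 3.11e-05). Of 10 fibroblast markers 6 were higher and 3 lower, with sums of 6790 and 8000 CPM in empty-vector and 5130 and 5060 CPM in untreated WI-38. Epithelial markers were higher for 3 of 6 (49.2 and 59.8 CPM in empty-vector, 29 and 31.7 CPM in untreated cells), and smooth muscle markers for 3 of 5 (241 and 296 CPM in empty-vector, 191 and 204 CPM in untreated cells). Of 9 endothelial markers 6 were lower and 1 higher (69 and 63.8 CPM in empty-vector, 97 and 101 CPM in untreated cells). The part of these markers in the result was not tested. The untreated libraries are labelled as the controls of the first doxorubicin experiment, not as cells without virus of the HRAS(G12v) experiment. Virus, puromycin, the growth of the culture and the experiment therefore cannot be told apart in this comparison. The empty-vector libraries serve the HRAS(G12v) comparison, so the values with HRAS(G12v) are set against a level already below that of untreated cells. Summed over the 35 genes the level was 320 and 273 CPM in HRAS(G12v) WI-38 and 408 and 333 CPM in empty-vector WI-38. It was 861 and 812 CPM in untreated WI-38 of the first doxorubicin experiment.

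With HRAS(G12v) 20 of the 35 fell (18.9% of all genes) and 4 rose (a smaller share than the 27.1% of all genes) relative to the empty vector, with a median of -0.71 against 0.071 over all genes. Of the BRCA1 complex 4 of 5 fell, of the genes around BRCA2 6 of 10, of the resection genes 2 of 5, of the core complex 6 of 9, FANCD2 and FANCI both, and of the kinases none. FANCD2 fell most, with 1.65 and 1.72 CPM in HRAS(G12v) WI-38, against 16.7 and 17.6 CPM in empty-vector WI-38 (-3.35 ± 0.14, edgeR adjusted p = 7.86e-09). ATR, the kinase that answers stalled replication, rose most, with 35.7 and 28.5 CPM in HRAS(G12v) WI-38, against 21.8 and 13.5 CPM in empty-vector WI-38 (0.87 ± 0.20, edgeR adjusted p = 0.0035). The other genes that rose were RAD50 (0.68 ± 0.13), NBN (0.81 ± 0.22) and CHEK2 (0.49 ± 0.16). The count of genes that rose was 8 without empty-vector replicate 1 and 2 without HRAS(G12v) replicate 1. NBN lost its call without HRAS(G12v) replicate 1 (adjusted p 0.0967 by edgeR), and CHEK2 without that library or empty-vector replicate 2 (0.171 to 0.315). Markers of cell type moved strongly: 9 of 10 fibroblast markers fell, with sums of 1500 and 1670 CPM in HRAS(G12v) WI-38 and 6790 and 8000 CPM in empty-vector WI-38. Of 9 endothelial markers 8 rose and 1 fell, with sums of 26.5 and 31 CPM in HRAS(G12v) WI-38 and 69 and 63.8 CPM in empty-vector WI-38, where CDH5 stood at 0.0760 and 1.26 CPM with HRAS(G12v) and 0.114 and 0.0640 CPM with the empty vector. TEK alone had 9.94 and 9.92 CPM with HRAS(G12v) and 67.2 and 61.3 CPM with the empty vector. Their part in the result was not tested.

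In the doxorubicin repeat 1 of the 35 genes was called, CHEK2, which rose, where 3.18% of all genes rose. No repair gene fell by the main test, where 2.26% of all genes fell; 5 were lower at an unadjusted p below 0.05 by edgeR, and DESeq2 called 2 lower after adjustment. The median over the 35 was -0.00019, and that of the 50 guide genes -0.47. CHEK2 had 21.6 and 18.3 CPM in treated WI-38 of the doxorubicin repeat, against 8.79 and 8.34 CPM in untreated WI-38 of the repeat (1.22 ± 0.19, edgeR adjusted p = 0.00148), and its groups did not overlap. BARD1, the lowest of the 35, had 4.65 and 6.94 CPM in treated WI-38 of the doxorubicin repeat, against 10.2 and 10.4 CPM in untreated WI-38 of the repeat (-0.83 ± 0.23, edgeR adjusted p = 0.0545). The guide genes summed to 458 and 454 CPM in treated WI-38 of the doxorubicin repeat and 616 and 727 CPM in untreated WI-38 of the repeat, and MKI67 stood at 15.3 and 7.95 CPM in treated and 28.4 and 43.9 CPM in untreated cells. Set against the proliferating libraries of the same set, the untreated libraries of the repeat had none of the 35 higher (0.0% of all genes) or lower (0.0%). At an unadjusted p below 0.05 by edgeR 5 were lower, and none after adjustment by DESeq2. Both of these control groups were low in guide genes beside the unirradiated WI-38 of the same set. The guide genes summed to 815 and 798 CPM in proliferating and 2300 and 2390 CPM in unirradiated WI-38, and MKI67 stood at 46.5 and 38 CPM and at 189 and 213 CPM. The part of this in the result of the repeat was not tested.

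Between the doxorubicin experiments the response of 21 of the 35 differed, each less negative or more positive in the repeat than in the first (2.59% of all genes), and none the other way (1.83%; none at an unadjusted p below 0.05 by edgeR or called by DESeq2). RAD51AP1 changed by 0.52 ± 0.50 in the repeat and -3.26 ± 0.18 in the first experiment, a difference of 3.81 ± 0.61 (edgeR adjusted p = 0.000342). BLM changed by -0.77 ± 0.36 in the repeat and -4.21 ± 0.22 in the first, a difference of 3.47 ± 0.45 (edgeR adjusted p = 2.59e-05). BRIP1 differed by 2.55 ± 0.38 (edgeR adjusted p = 0.000144). All 50 guide genes differed in the same direction, with a median difference of 3.04. Dose and duration are labelled alike, but the experiments lie in the first and the second WI-38 set, whose libraries differed in make-up as given above. Experiment, library set and the state of the control cells, given above for the repeat, cannot be told apart.

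In irradiated WI-38 19 of the 35 fell (6.09% of all genes) and 2 rose (8.89%), with a median of -0.94 against -0.064 over all genes. Of the BRCA1 complex 4 of 5 fell, of the genes around BRCA2 4 of 10 and of the resection genes 2 of 5. Of the core complex 6 of 9 fell, as did FANCD2, FANCI and, of the kinases, CHEK1. Many of these calls were fragile. FANCF and RAD54L lost theirs without any 1 of the 4 libraries. BRCA1, TOPBP1, RAD54B, FANCA, FANCB, FANCE and FANCG lost theirs without at least 1 library. BRCA1, TOPBP1, RAD54L, FANCB and FANCF were not called when the compared groups were fitted alone. BLM fell most, with 0.515 and 0.225 CPM in irradiated WI-38, against 4.26 and 3.52 CPM in unirradiated WI-38 (-3.40 ± 0.40, edgeR adjusted p = 4.32e-05). CHEK2, the kinase that ATM activates, rose most, with 18.1 and 18.9 CPM in irradiated WI-38, against 7.03 and 7.27 CPM in unirradiated WI-38 (1.37 ± 0.19, edgeR adjusted p = 0.000171). The other gene that rose was RAD51B (0.98 ± 0.27, edgeR adjusted p = 0.0259), and it lost its call without control replicate 1, control replicate 2 or irradiated replicate 1 (adjusted p 0.0603 to 0.194 by edgeR). Mitochondrial genes took 9.71% and 14% of counts in irradiated and 6.31% and 6.99% in unirradiated cells, and of the 10 fibroblast markers 3 rose and none fell. Of 5 smooth muscle markers 1 fell and none rose, with sums of 426 and 401 CPM in irradiated WI-38 and 915 and 1020 CPM in unirradiated WI-38. Endothelial markers summed to 148 and 113 CPM in irradiated and 61.9 and 61.3 CPM in unirradiated cells (1 of 8 tested rose and 1 fell), and epithelial markers to 19 and 23.2 CPM in irradiated and 40.4 and 50.3 CPM in unirradiated cells (2 of 6 fell). Their part was not tested.

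The unirradiated libraries differed from the proliferating libraries of the same set: 9 of the 35 were higher (8.6% of all genes) and 4 lower (10.5%), and 41 of 50 guide genes were higher. The 4 lower ones were PALB2 (-0.92 ± 0.21), RAD50 (-0.99 ± 0.25), ATM (-1.19 ± 0.23) and CHEK2 (-0.83 ± 0.19), all among the 5 genes that followed least, whose calls in irradiated WI-38 were made against these libraries; the share that was lower was close to that of all genes. The guide genes summed to 468 and 403 CPM in irradiated cells, 2300 and 2390 CPM in unirradiated WI-38 and 815 and 798 CPM in proliferating WI-38. Beside the proliferating libraries, a comparison that was not tested, CHEK2 had 18.1 and 18.9 CPM in irradiated and 13.1 and 12.3 CPM in proliferating WI-38, ATM 43.3 and 23.6 CPM and 91.9 and 94.7 CPM, and RAD50 112 and 60.8 CPM and 189.5 and 184 CPM. CHEK2 thus lay above both sets of controls, while ATM and RAD50, which overlapped the unirradiated libraries, lay below the proliferating ones. Of 5 smooth muscle markers 4 were higher in the unirradiated libraries than in the proliferating ones, with sums of 915 and 1020 CPM in unirradiated WI-38 and 520 and 481 CPM in proliferating WI-38; their part was not tested. The count of lower genes was 1 or 2 without 1 library and that of higher genes 18 when the compared groups were fitted alone.

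Irradiation at 10 Gy was followed by different responses in WI-38 and IMR-90. Fitted together, 24 of the 35 were lower in the WI-38 response than in the IMR-90 response (11.1% of all genes) and 1, CHEK2, was higher (8.84%). RAD51AP1 changed by -2.86 ± 0.54 in WI-38 and 1.00 ± 0.10 in IMR-90, a difference of -3.94 ± 0.64 (edgeR adjusted p = 0.000146). CHEK2 changed by 1.37 ± 0.19 in WI-38 and -0.37 ± 0.082 in IMR-90, a difference of 1.67 ± 0.21 (edgeR adjusted p = 1.21e-05). Of the guide genes 49 of 50 were lower in the WI-38 response. Strain, library set and the state of the control cells, given above, cannot be told apart in this comparison.

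In late-passage WI-38 13 of the 35 fell (6.82% of all genes) and none rose (5.8%; none at an unadjusted p below 0.05 by edgeR or DESeq2), with a median of -0.63 against 0.013 over all genes. Of the BRCA1 complex 3 of 5 fell, of the genes around BRCA2 4 of 10, of the resection genes 2 of 5, of the core complex 2 of 9, 1 of FANCD2 and FANCI, and CHEK1. The CHEK1 call was lost without any 1 of the 4 libraries (adjusted p 0.123 to 0.26 by edgeR) and with DESeq2 size factors, and those of RAD51D and RAD54B without any of 3 libraries (0.0526 to 0.0926 and 0.187 to 0.38). FANCB, a core complex subunit, fell most, with 0.166 and 0.120 CPM in late-passage WI-38, against 1.08 and 1.26 CPM in proliferating WI-38 (-3.04 ± 0.44, edgeR adjusted p = 0.000341). RBBP8, which starts the trimming of broken ends, had the smallest called fall, with 27.6 and 23.4 CPM in late-passage WI-38, against 39.7 and 39.3 CPM in proliferating WI-38 (-0.63 ± 0.19, edgeR adjusted p = 0.0414), a call lost without any 1 of the 4 libraries (adjusted p 0.0731 to 0.294 by edgeR). The count of 13 was 7 without either proliferating library and 8 without late-passage replicate 2. BRCA2 (-1.35 ± 0.35, edgeR adjusted p = 0.019) and RAD51AP1 (-1.74 ± 0.52, edgeR adjusted p = 0.0405) each lost the call without late-passage replicate 2 or either proliferating library (adjusted p 0.0659 to 0.172 and 0.085 to 0.229 by edgeR). Mitochondrial genes took 8.71% and 5.78% of counts in late-passage and 3.21% and 4.41% in proliferating cells, and 2 of 10 fibroblast markers fell. Of 5 smooth muscle markers 2 fell and 1 rose, with sums of 205 and 304 CPM in late-passage and 520 and 481 CPM in proliferating WI-38; the part of these in the result was not tested.

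The genes that followed in the most comparisons, with ties broken by the higher mean level, were BARD1, BRIP1, BRCA2, RAD51AP1 and BLM. They were picked by their calls, so their levels are a description.

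BARD1, the partner with which BRCA1 forms a ubiquitin ligase, had 17.6, 17.9 and 17.8 CPM in irradiated HAEC, against 37.7 and 37.9 CPM in control HAEC, and 20.1, 20.9 and 20.98 CPM in irradiated HUVEC, against 32.02, 30.6 and 33.6 CPM in control HUVEC. All irradiated endothelial libraries lay below their controls. In the other direction, it had 15.7 and 13.96 CPM in irradiated and 15.7 and 14.9 CPM in late-passage IMR-90, against 9.41 and 9.20 CPM in the proliferating libraries they share. Both IMR-90 groups lay above those libraries. Treated WI-38 of the first doxorubicin experiment had 4.70 and 4.81 CPM, against 26.5 and 25.99 CPM in untreated WI-38. With the oncogene the level was 1.82 and 1.32 CPM in HRAS(G12v) WI-38, against 9.45 and 5.29 CPM in empty-vector WI-38, where the empty-vector libraries already stood lower than the untreated ones. Irradiated WI-38 had 5.11 and 3.58 CPM, against 23.6 and 23.99 CPM in unirradiated WI-38. Late passage gave the lowest of these levels in the second WI-38 set, 3.34 and 3.03 CPM in late-passage WI-38, against 14.5 and 15.3 CPM in proliferating WI-38. In no WI-38 comparison did the groups overlap, and the log2 fold changes of BARD1 ran from -2.46 ± 0.24 in WI-38 after doxorubicin in the first experiment to 0.72 ± 0.079 in late-passage IMR-90.

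BRIP1, a helicase that binds BRCA1 and is itself a Fanconi gene, had 13.7, 15.2 and 14.1 CPM in irradiated HAEC, against 42.2 and 43.97 CPM in control HAEC. For HUVEC the values were 19.6, 20.7 and 19.7 CPM in irradiated HUVEC, against 31.4, 33.05 and 37.4 CPM in control HUVEC, a smaller gap with no overlap. Irradiated IMR-90 had 21.6 and 20.3 CPM, against 10.3 and 11.1 CPM in proliferating IMR-90, about the same as in late-passage cells. After doxorubicin the first experiment gave 3.87 and 2.91 CPM in treated WI-38 of the first doxorubicin experiment, against 29.6 and 26.5 CPM in untreated WI-38, and the repeat gave 3.82 and 3.95 CPM in treated WI-38 of the doxorubicin repeat, against 5.06 and 6.13 CPM in untreated WI-38 of the repeat. Treated libraries lay below untreated ones in both, by far less in the repeat, where BRIP1 was not called (-0.53 ± 0.26, edgeR adjusted p = 0.299). HRAS(G12v) WI-38 had 2.27 and 1.78 CPM, against 10.7 and 6.01 CPM in empty-vector WI-38. Irradiation gave 3.97 and 2.69 CPM in irradiated WI-38, against 19.8 and 19.7 CPM in unirradiated WI-38, and late passage 3.09 and 1.82 CPM in late-passage WI-38, against 7.44 and 7.66 CPM in proliferating WI-38. The unirradiated controls thus held more BRIP1 than the other controls of the second WI-38 set. Its log2 fold changes ran from -3.05 ± 0.26 in WI-38 after doxorubicin in the first experiment to 0.97 ± 0.081 in irradiated IMR-90.

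BRCA2, a mediator of recombination on trimmed DNA, had 22.7, 23.1 and 23.7 CPM in irradiated HAEC, against 66.5 and 65.7 CPM in control HAEC. The same dose left 40.4, 40.5 and 39.9 CPM in irradiated HUVEC, against 63.8, 67.5 and 69.5 CPM in control HUVEC. In neither did the groups overlap. Late-passage IMR-90 had 10.51 and 10.1 CPM, between the irradiated and the proliferating libraries given above. In WI-38 doxorubicin gave 3.35 and 2.81 CPM in treated WI-38 of the first doxorubicin experiment, against 23.7 and 17.6 CPM in untreated WI-38, a fall of all treated libraries. HRAS(G12v) WI-38 had 1.44 and 1.59 CPM, against 5.23 and 3.55 CPM in empty-vector WI-38, again without overlap. In the repeat the groups overlapped, with 3.04 and 2.16 CPM in treated WI-38 of the doxorubicin repeat, against 2.59 and 3.72 CPM in untreated WI-38 of the repeat. Irradiated WI-38 were below their controls, with 1.58 and 0.874 CPM in irradiated WI-38, against 6.10 and 4.94 CPM in unirradiated WI-38, and so were late-passage cells, with 2.56 and 1.37 CPM in late-passage WI-38, against 5.16 and 4.88 CPM in proliferating WI-38. The log2 fold changes of BRCA2 ran from -2.75 ± 0.22 in WI-38 after doxorubicin in the first experiment to 1.09 ± 0.078 in irradiated IMR-90.

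RAD51AP1, a recombination factor that binds DNA, had 10.2, 9.51 and 11.4 CPM in irradiated HAEC, against 31.5 and 31.4 CPM in control HAEC. HUVEC followed with 15.1, 16.3 and 14.4 CPM in irradiated HUVEC, against 26.6, 28.4 and 30.6 CPM in control HUVEC. The gene was higher in both IMR-90 groups, with 7.65 and 7.69 CPM in irradiated and 5.42 and 5.19 CPM in late-passage IMR-90, against 3.52 and 4.14 CPM in the proliferating libraries they share. Doxorubicin gave 1.88 and 1.69 CPM in treated WI-38 of the first doxorubicin experiment, against 17.7 and 16.4 CPM in untreated WI-38. HRAS(G12v) WI-38 had 0.670 and 0.689 CPM, against 3.09 and 2.25 CPM in empty-vector WI-38, the lowest level of RAD51AP1 in the first WI-38 set. The repeat stood out among the WI-38 comparisons because its groups overlapped, with 2.56 and 3.05 CPM in treated WI-38 of the doxorubicin repeat, against 0.962 and 2.95 CPM in untreated WI-38 of the repeat. Irradiated WI-38 had 0.946 and 1.06 CPM, against 7.57 and 7.01 CPM in unirradiated WI-38, a clear gap. Late-passage libraries were uneven, with 1.49 and 0.386 CPM in late-passage WI-38, against 3.16 and 3.08 CPM in proliferating WI-38. Over the 9 comparisons the log2 fold changes of RAD51AP1 ran from -3.26 ± 0.18 in WI-38 after doxorubicin in the first experiment to 1.00 ± 0.10 in irradiated IMR-90.

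BLM, the helicase mutated in Bloom syndrome, had 7.61, 8.55 and 7.94 CPM in irradiated HAEC, against 25.5 and 25.2 CPM in control HAEC. In the vein cells the values were 16.3, 16.5 and 15.2 CPM in irradiated HUVEC, against 30.9, 30.7 and 33.1 CPM in control HUVEC, again without overlap. It had 4.59 and 4.87 CPM in irradiated and 3.98 and 4.08 CPM in late-passage IMR-90, against 3.24 and 3.03 CPM in the proliferating libraries they share. These IMR-90 groups did not overlap, but the gap was narrow beside that in endothelial cells. HRAS(G12v) WI-38 had 0.615 and 0.540 CPM, against 2.81 and 1.98 CPM in empty-vector WI-38. In the repeat it had 0.704 and 0.860 CPM in treated WI-38 of the doxorubicin repeat, against 1.10 and 1.56 CPM in untreated WI-38 of the repeat, lower in both treated libraries but not called (-0.77 ± 0.36, edgeR adjusted p = 0.271). Late-passage WI-38 had 0.376 and 0.356 CPM, against 1.39 and 1.77 CPM in proliferating WI-38. Levels of BLM below 1 CPM in treated WI-38 still rested on deep libraries, and its log2 fold changes ran from -4.21 ± 0.22 in WI-38 after doxorubicin in the first experiment to 0.59 ± 0.11 in irradiated IMR-90.

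**Figure D3:**
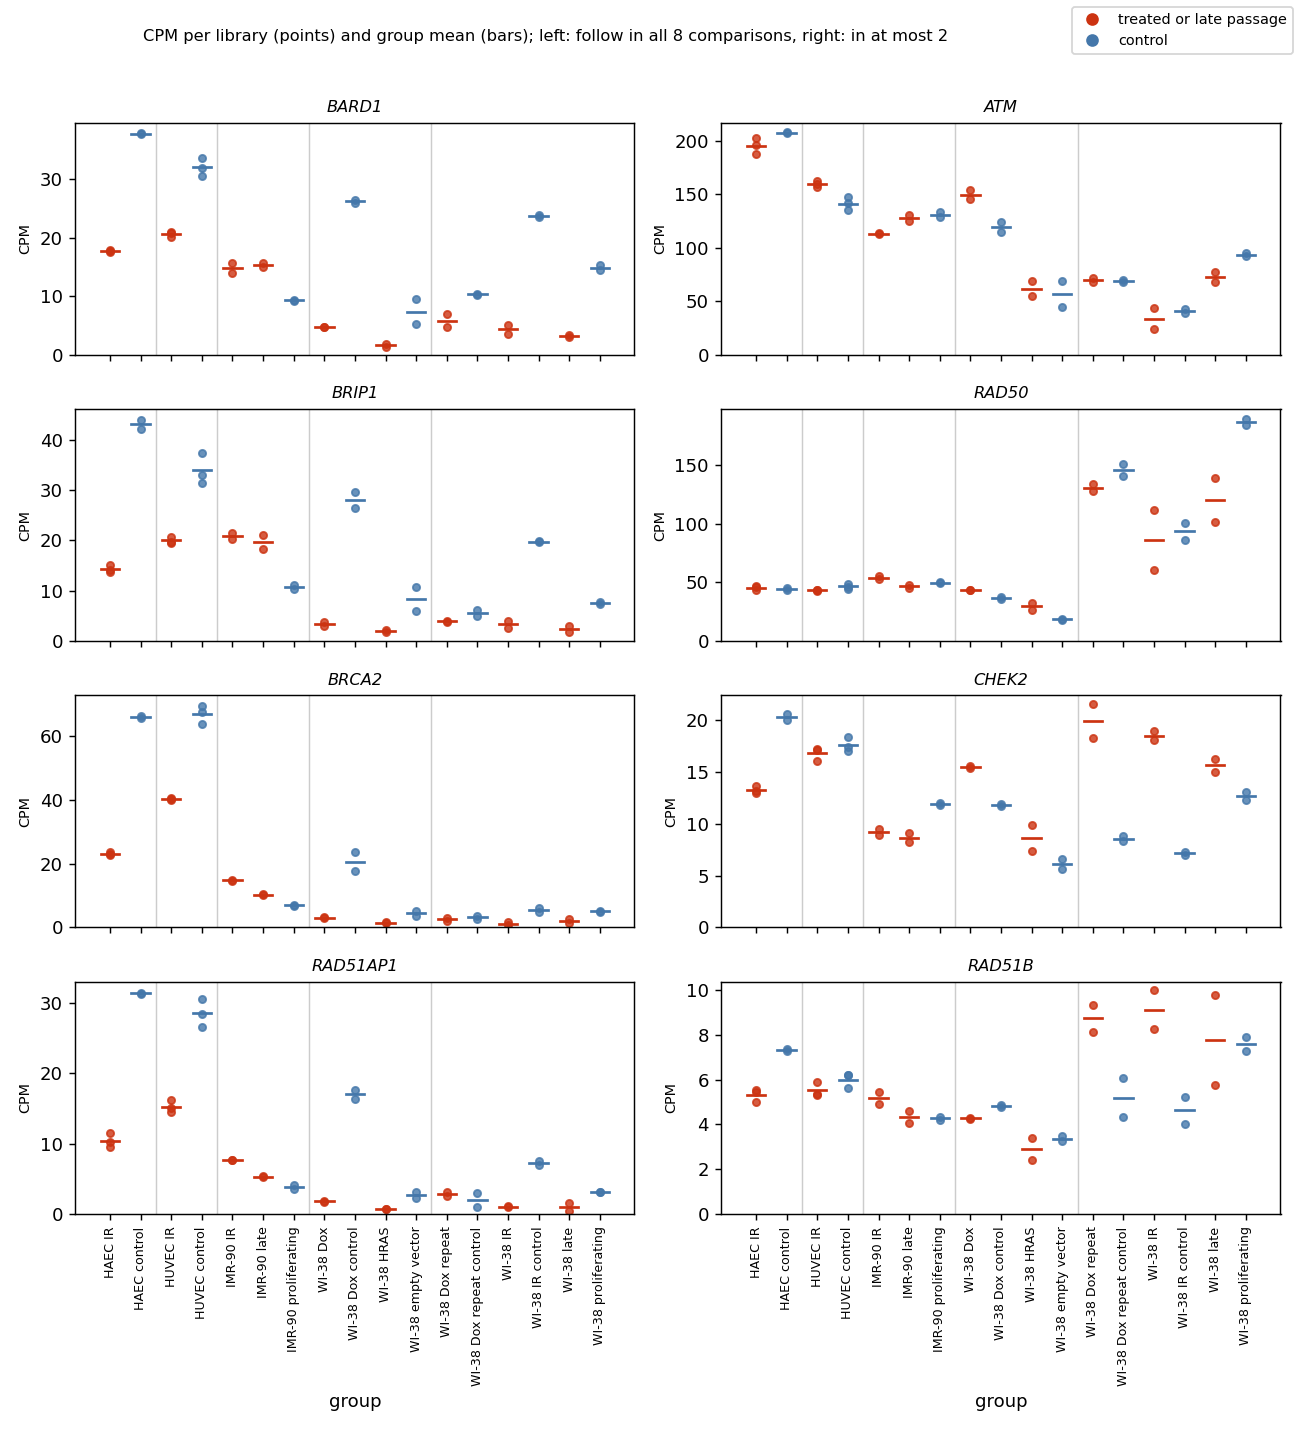
CPM per library (points, y axis from 0) of BARD1, BRIP1, BRCA2 and RAD51AP1 (left) and of ATM, RAD50, CHEK2 and RAD51B (right) in the treated (red) and control (blue) libraries of the 9 comparisons, bars being group means. The red points of the left genes lie below the blue ones in HAEC and HUVEC and above them in IMR-90, while those of the right genes lie close to or across them in most comparisons.

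The genes that followed least were PALB2, ATM, RAD50, CHEK2 and RAD51B, and their levels too are a description.

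PALB2, the bridge between BRCA1 and BRCA2, had 12.4, 11.5 and 11.5 CPM in irradiated HAEC, against 14.1 and 13.1 CPM in control HAEC. In HUVEC it had 12.7, 12.9 and 12.7 CPM in irradiated HUVEC, against 14.7, 15.1 and 16.2 CPM in control HUVEC. Both falls were called, but they were shallow, -0.21 ± 0.064, edgeR adjusted p = 0.0116 in HAEC and -0.26 ± 0.055, edgeR adjusted p = 0.000411 in HUVEC, and the first was lost without control replicate 1 or irradiated replicate 3 (adjusted p 0.0574 to 0.2 by edgeR). IMR-90 had 11 and 11.1 CPM in irradiated and 9.40 and 9.66 CPM in late-passage IMR-90, against 10.7 and 11.2 CPM in the proliferating libraries they share. The late-passage fall (-0.20 ± 0.076, edgeR adjusted p = 0.0441) went against the guide genes and was lost without any 1 of the 4 libraries (adjusted p 0.0725 to 0.18 by edgeR). No WI-38 comparison was called. Treated WI-38 of the first doxorubicin experiment had 8.44 and 9.02 CPM, against 11.1 and 12.2 CPM in untreated WI-38, and HRAS(G12v) ran the other way with 6.65 and 6.13 CPM in HRAS(G12v) WI-38, against 5.62 and 4.14 CPM in empty-vector WI-38. In the second set it had 22.3 and 20.4 CPM in treated WI-38 of the doxorubicin repeat, against 28.4 and 32.9 CPM in untreated WI-38 of the repeat, 21.8 and 17.5 CPM in irradiated WI-38, against 18.7 and 20.3 CPM in unirradiated WI-38, and 27.6 and 19.4 CPM in late-passage WI-38, against 35.6 and 38.4 CPM in proliferating WI-38. Only the irradiation groups overlapped there, and the log2 fold changes of PALB2 ran from -0.65 ± 0.21 in late-passage WI-38 to 0.39 ± 0.17 in HRAS(G12v) WI-38.

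ATM, described above in HAEC and HUVEC, had 113 and 113 CPM in irradiated and 125 and 130.4 CPM in late-passage IMR-90, against 133 and 128 CPM in the proliferating libraries they share. Irradiated libraries lay below the proliferating ones, late-passage libraries did not. Treated WI-38 of the first doxorubicin experiment had 154 and 145 CPM, against 124 and 114 CPM in untreated WI-38, higher in both treated libraries without a call (0.32 ± 0.18, edgeR adjusted p = 0.222). Under HRAS(G12v) the groups overlapped, with 68.5 and 54.6 CPM in HRAS(G12v) WI-38, against 68.6 and 44.9 CPM in empty-vector WI-38. They overlapped in the repeat too, with 71.6 and 68.2 CPM in treated WI-38 of the doxorubicin repeat, against 67.6 and 69.4 CPM in untreated WI-38 of the repeat. Irradiated WI-38 were uneven, with 43.3 and 23.6 CPM in irradiated WI-38, against 42.7 and 39.2 CPM in unirradiated WI-38. Late-passage WI-38 had 77.3 and 68.2 CPM, against 91.9 and 94.7 CPM in proliferating WI-38, below both but not called (-0.36 ± 0.23, edgeR adjusted p = 0.364). The log2 fold changes of ATM ran from -0.36 ± 0.23 in late-passage WI-38 to 0.32 ± 0.18 in WI-38 after doxorubicin in the first experiment, a narrow band beside the genes that followed.

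RAD50, which holds broken ends together in a complex with MRE11 and NBN, had 43.99, 46.9 and 46.2 CPM in irradiated HAEC, against 45.4 and 43.6 CPM in control HAEC, with overlap. HUVEC stood slightly below their controls, with 42.9, 43.9 and 43.9 CPM in irradiated HUVEC, against 44.8, 46.4 and 48.97 CPM in control HUVEC, the 1 comparison in which RAD50 followed. It had 55.3 and 52.7 CPM in irradiated and 48.2 and 45.3 CPM in late-passage IMR-90, against 49.8 and 49.99 CPM in the proliferating libraries they share. Neither IMR-90 change was called. Treated WI-38 of the first doxorubicin experiment had 43.2 and 43.5 CPM, against 37.96 and 35.9 CPM in untreated WI-38, higher in both treated libraries without a call (0.23 ± 0.13, edgeR adjusted p = 0.229). With HRAS(G12v) it rose, with 32.8 and 26.7 CPM in HRAS(G12v) WI-38, against 19.1 and 17.99 CPM in empty-vector WI-38 (0.68 ± 0.13, edgeR adjusted p = 0.00129), while the guide genes fell. In the second WI-38 set the values were 128 and 134 CPM in treated WI-38 of the doxorubicin repeat, against 151 and 141 CPM in untreated WI-38 of the repeat, 112 and 60.8 CPM in irradiated WI-38, against 101 and 86.6 CPM in unirradiated WI-38, and 139.6 and 101 CPM in late-passage WI-38, against 189.5 and 184 CPM in proliferating WI-38. None of these was called, and the 2 irradiated libraries differed from each other more than from their controls.

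CHEK2, which passes the ATM signal on to p53 and other targets, had 13.6, 13.1 and 12.96 CPM in irradiated HAEC, against 20.6 and 19.99 CPM in control HAEC, its 1 fall along with the guide genes (-0.61 ± 0.054, edgeR adjusted p = 9.54e-09). HUVEC overlapped, with 17.2, 17.1 and 16.1 CPM in irradiated HUVEC, against 18.4, 17.03 and 17.4 CPM in control HUVEC. In IMR-90, where the guide genes rose, CHEK2 fell, with 8.95 and 9.51 CPM in irradiated and 9.10 and 8.20 CPM in late-passage IMR-90, against 11.8 and 11.99 CPM in the proliferating libraries they share. In all 5 WI-38 comparisons, in 4 of which the guide genes fell by the rule above, the treated libraries lay above their controls. The first doxorubicin experiment gave 15.6 and 15.3 CPM in treated WI-38 of the first doxorubicin experiment, against 11.9 and 11.7 CPM in untreated WI-38, a change that was not called (0.39 ± 0.16, edgeR adjusted p = 0.0919). HRAS(G12v) gave 9.90 and 7.33 CPM in HRAS(G12v) WI-38, against 6.64 and 5.67 CPM in empty-vector WI-38 (0.49 ± 0.16, edgeR adjusted p = 0.0282). That call was lost when the compared groups were fitted alone. Late-passage WI-38 had 16.2 and 15.01 CPM, against 13.1 and 12.3 CPM in proliferating WI-38, not called (0.30 ± 0.18, edgeR adjusted p = 0.339). The rises after irradiation and in the repeat, given above, were the largest, and the log2 fold changes of CHEK2 ran from -0.61 ± 0.054 in irradiated HAEC to 1.37 ± 0.19 in irradiated WI-38. Part of its sequence is shared with a pseudogene, as given at the end, so some of its counts are uncertain.

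RAD51B, which acts in a complex with RAD51C and RAD51D, fell in HAEC, with 4.99, 5.46 and 5.56 CPM in irradiated HAEC, against 7.30 and 7.39 CPM in control HAEC (-0.46 ± 0.083, edgeR adjusted p = 0.000137). HUVEC overlapped, with 5.92, 5.33 and 5.35 CPM in irradiated HUVEC, against 5.62, 6.20 and 6.19 CPM in control HUVEC. It had 4.92 and 5.44 CPM in irradiated and 4.04 and 4.60 CPM in late-passage IMR-90, against 4.35 and 4.19 CPM in the proliferating libraries they share. Neither of these IMR-90 differences was called. Treated WI-38 of the first doxorubicin experiment had 4.28 and 4.26 CPM, against 4.88 and 4.77 CPM in untreated WI-38, a small gap that was not called (-0.18 ± 0.18, edgeR adjusted p = 0.511). Under HRAS(G12v) the groups overlapped, with 3.37 and 2.41 CPM in HRAS(G12v) WI-38, against 3.25 and 3.49 CPM in empty-vector WI-38. Treated cells of the repeat lay above untreated ones, with 9.36 and 8.13 CPM in treated WI-38 of the doxorubicin repeat, against 4.33 and 6.08 CPM in untreated WI-38 of the repeat (0.75 ± 0.27, edgeR adjusted p = 0.137, not called). Irradiation gave 10 and 8.25 CPM in irradiated WI-38, against 5.23 and 4.03 CPM in unirradiated WI-38, the rise given above. Late-passage libraries fell on both sides of their controls, with 9.80 and 5.77 CPM in late-passage WI-38, against 7.93 and 7.27 CPM in proliferating WI-38. The log2 fold changes of RAD51B ran from -0.46 ± 0.083 in irradiated HAEC to 0.98 ± 0.27 in irradiated WI-38.

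**Figure D4:**
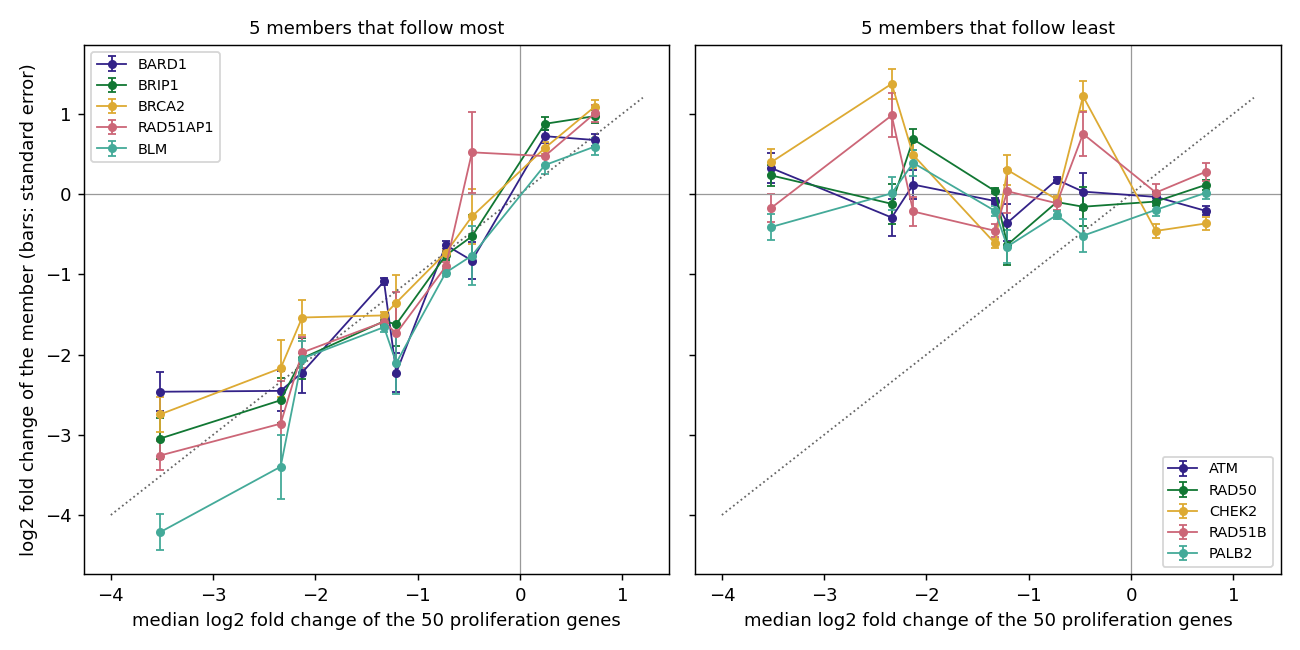
Log2 fold change (± SE) of the 5 genes that followed most and the 5 that followed least (y axis) against the median log2 fold change of the 50 guide genes (x axis) in each of the 9 comparisons, with the line of equality dotted. The points of BARD1, BRIP1, BRCA2, RAD51AP1 and BLM spread from positive values in IMR-90 to strongly negative ones in WI-38 after doxorubicin, while those of PALB2, ATM and RAD50 lie between -0.65 and 0.68 and those of CHEK2 and RAD51B reach 1.37 and 0.98 in irradiated WI-38.

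Another 46 genes of homologous recombination and the Fanconi pathway, not among the 35, were called in the direction of the guide genes more often than against it in each of the 8 comparisons with a direction, and a smaller share of them followed than of the 35; the shares were not tested against each other. Of these 46, 4 rose and 33 fell in irradiated HAEC, 3 rose and 29 fell in irradiated HUVEC, 24 rose and 6 fell in irradiated IMR-90, 18 rose and 8 fell in late-passage IMR-90 and 1 rose and 26 fell in WI-38 after doxorubicin in the first experiment. In the other WI-38 comparisons 9 rose and 15 fell in HRAS(G12v) WI-38, 2 rose and 9 fell in irradiated WI-38 and 1 rose and 9 fell in late-passage WI-38, and none was called in the doxorubicin repeat, where the median was -0.13. CLSPN (claspin), which ATR needs to activate CHEK1, fell by 3.82 ± 0.18 on the log2 scale in the first doxorubicin experiment, 3.40 ± 0.41 in irradiated WI-38, 2.83 ± 0.17 with HRAS(G12v) and 1.66 ± 0.041 in HAEC, and rose by 1.47 ± 0.09 in irradiated IMR-90. BABAM2, a scaffold of a BRCA1-binding complex, rose by 0.39 ± 0.065 in HAEC, 0.38 ± 0.063 in HUVEC and 0.73 ± 0.18 in irradiated WI-38, and changed by -0.53 ± 0.078 in irradiated IMR-90. Of all genes, 19.9% fell in irradiated HAEC and 20.1% in irradiated HUVEC, 13.2% after doxorubicin in the first experiment, 18.9% with HRAS(G12v), 6.09% in irradiated WI-38 and 6.82% in late-passage WI-38, and 26.6% rose in each IMR-90 comparison. With HRAS(G12v) 27.1% of all genes rose, a larger share than the 9 of 46.

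End joining seals breaks without a copy, and 18 of its genes were set beside the recombination genes. Of these 18, 3 rose and 13 fell in irradiated HAEC, 3 rose and 11 fell in irradiated HUVEC, 6 rose and 7 fell in irradiated IMR-90, 6 rose and 6 fell in late-passage IMR-90, 1 rose and 12 fell in WI-38 after doxorubicin in the first experiment and 2 rose and 6 fell in HRAS(G12v) WI-38. None rose in irradiated WI-38, where 6 fell, or in late-passage WI-38, where 3 fell, and none was called in the repeat. The shares of all genes given for the 46 apply here too, with 19.7% of all genes rising in irradiated HAEC and 18.6% in irradiated HUVEC, and 13.6% after doxorubicin in the first experiment. In irradiated IMR-90 26.6% of all genes rose and 22.5% fell, and in late-passage IMR-90 26.6% and 23.5%. POLQ, the polymerase of an alternative end joining used when recombination fails, fell by 4.04 ± 0.20 in the first doxorubicin experiment, 3.33 ± 0.38 in irradiated WI-38 and 1.60 ± 0.045 in HAEC. TP53BP1, which shields ends from trimming, rose by 0.44 ± 0.12 in the first doxorubicin experiment and 0.17 ± 0.036 in HAEC, and fell by 0.47 ± 0.055 in irradiated IMR-90. The median of the 18 was -0.33 in HAEC and -0.68 in the first doxorubicin experiment, against -0.76 and -1.44 for the 35 recombination and Fanconi genes; the lists were not tested against each other.

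**Figure D5:**
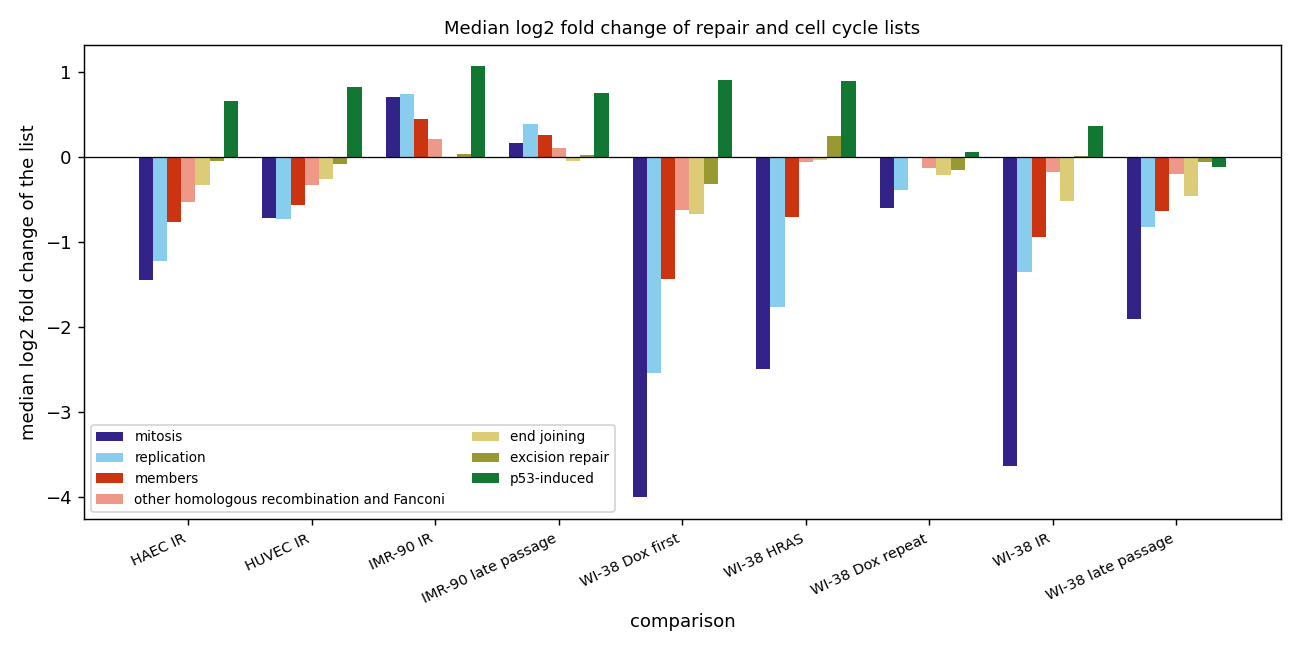
Median log2 fold change (bars, y axis) of the 35 recombination and Fanconi genes (members) and of 6 other gene lists in the 9 comparisons, each treated group over its control. The 35 genes lie between the cell-division lists and 0 in HAEC (-0.76), HUVEC (-0.57) and the first doxorubicin experiment (-1.44), and p53-induced genes lie above 0 in 8 of the 9.

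Genes of cell division are known to carry recurring elements near their start sites, so the 250 bases before the start were read for the members found in RefSeq's table (GRCh38.p14; 32 of the 35 matched). Motifs searched on both strands were the CHR element TTTGAA, the E2F sites TTTCCCGC, TTTCGCGC, TTTGCCGC and TTTGGCGC, and the CCAAT box CCAAT, none of which contains another. The CHR element was found in a window of 12.5% of the repair genes, 29.5% of 44 guide genes and 16.1% of all 27305 genes of the table. An E2F site was found in 6.25% of the repair genes, 25% of the guide genes and 3.4% of all, and a CCAAT box in 46.9%, 70.5% and 37%. Among the 12 genes with a promoter that followed in 7 or 8 comparisons the shares were 16.7%, 8.33% and 58.3%, and among the 5 that followed in at most 2 they were 20%, 0% and 60%. With 12 and 5 genes these shares were not tested against each other, and no conclusion is drawn from them. These are shares of windows with the letters, not of bound sites. Windows of 2 genes that followed in all 8 comparisons (BRIP1 at chr17:61863529-61863778, minus strand; RAD51AP1 at chr12:4538640-4538889, plus strand) and 2 that followed in 1 (ATM at chr11:108222817-108223066, plus strand; RAD51B at chr14:67823291-67823540, plus strand) are shown for comparison, 5′ to 3′ on the gene's strand, with matches to the motifs on either strand in capitals.
BRIP1: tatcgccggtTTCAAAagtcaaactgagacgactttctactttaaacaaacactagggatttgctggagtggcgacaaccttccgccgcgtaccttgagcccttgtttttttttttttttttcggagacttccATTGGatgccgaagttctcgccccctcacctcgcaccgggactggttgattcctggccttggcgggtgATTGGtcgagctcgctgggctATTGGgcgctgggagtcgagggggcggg
RAD51AP1: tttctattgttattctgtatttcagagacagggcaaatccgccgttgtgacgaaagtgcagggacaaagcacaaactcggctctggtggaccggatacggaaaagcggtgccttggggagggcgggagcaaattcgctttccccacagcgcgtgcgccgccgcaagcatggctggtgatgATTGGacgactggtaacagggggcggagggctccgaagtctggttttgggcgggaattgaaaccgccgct
ATM: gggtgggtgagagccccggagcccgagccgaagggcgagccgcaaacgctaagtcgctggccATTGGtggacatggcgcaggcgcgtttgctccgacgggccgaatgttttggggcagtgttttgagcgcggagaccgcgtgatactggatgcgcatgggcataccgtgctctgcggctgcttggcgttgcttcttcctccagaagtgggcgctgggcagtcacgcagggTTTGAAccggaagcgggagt
RAD51B: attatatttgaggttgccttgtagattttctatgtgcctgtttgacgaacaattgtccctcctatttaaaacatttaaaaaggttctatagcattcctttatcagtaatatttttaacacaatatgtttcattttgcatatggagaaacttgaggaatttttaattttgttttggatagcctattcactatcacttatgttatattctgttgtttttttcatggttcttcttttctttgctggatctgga
BRIP1 held 1 CHR element and 3 CCAAT boxes, RAD51AP1 1 CCAAT box, ATM 1 CHR element and 1 CCAAT box, and RAD51B none of these in the window shown. These 4 windows are examples, and a link of the elements to the calls was not tested. ATM and RAD51B each have another start in the table, whose window is not shown.

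Levels can be set between genes per length. As CPM per kilobase of exon (GENCODE 29), the order of the 35 genes differed between control groups and is given within each. UBE2T was highest and FANCC lowest in control HAEC (20.9 and 0.608), control HUVEC (20 and 0.606) and the untreated WI-38 of the first set (12.2 and 0.535). In proliferating IMR-90 NBN was highest (8.07) and BLM lowest (0.470). In the second WI-38 set RAD50 was highest in proliferating libraries (19.1) and XRCC2 lowest (0.0482). BRCA2 stood at 5.39 in control HAEC and 5.45 in control HUVEC. Counts of some genes are uncertain because exons overlap those of others and whether strand was used in counting is not given in the sources used here. KLC1 on the opposite strand overlaps 76.7% of XRCC3 exon length, LRRC41 25.1% of RAD54L, ZNF276 23.6% of FANCA, and opposite-strand genes 19.7% of FANCL, 16.4% of ATR and 11.3% of FANCF. FSBP lies on the same strand over 59.1% of RAD54B. Of stretches of 31 bases, 14.6% of CHEK2 (the pseudogene CHEK2P2 among those that share them), 14.5% of RAD51D, 12.3% of FANCD2 and 9.38% of MRE11 recur in other genes.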

How the data were processed

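Total RNA without ribosomal RNA was measured in 37 libraries, made with Ovation V2 cDNA per the labels' protocols. The authors deposited whole-number read counts per Ensembl gene, not normalized. Per the submitters' processing notes, the tools were STAR 2.4, featureCounts, cutadapt and bcl2fastq, with the hg19 build. The annotation release was not given in the sources used here, nor was the strand setting. Of 57773 identifiers, 52338 had a symbol, and all 35 repair genes matched.

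Libraries were grouped by their labels. Counts were tested with edgeR 4.0.16 in R 4.3.3 (quasi-likelihood test, TMM scaling, filterByExpr, Benjamini-Hochberg adjustment over all genes, adjusted p below 0.05) in 1 fit per set (HAEC, HUVEC, IMR-90, first and second WI-38 set). A set's groups thus share 1 estimate of the spread. Differences between responses were tested in 1 fit over both sets. A standard error is |log2 fold change| over the square root of F. CPM use TMM-scaled library sizes. Library totals ran from 102293388 to 370996204 counts, and the test takes counting error into account. The test was tested on simulated counts. Alternatives were DESeq2 1.42.0 (size factors, or its Wald test), no filter on low counts, the compared groups alone, a replicate block, each library left out, and the direction of cell division taken from mitosis or replication genes alone.

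Values in every library are given for the 5 members following in most and the 5 in fewest comparisons and for the called members with the highest and lowest change in each comparison. Of other lists, at most 4 genes were named, from the 2 with the smallest adjusted p per direction. Values of BRCA1, FANCD2, FANCB and NBN outside that rule were chosen after they were seen. The members and lists were chosen with earlier results of these data known.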

Additional observations from a re-analysis of the deposited data

Results flagged for a closer look

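The 3 contrasts below were flagged because a test of the difference between responses passed. After irradiation 1 repair gene, CHEK2, responded higher in WI-38 than in IMR-90 (1.67 ± 0.21, edgeR adjusted p = 1.21e-05), where 8.84% of all genes did. Another 24 responded lower, where 11.1% of all genes did. Among them, BARD1 differed by -3.20, BRIP1 by -3.61, BRCA2 by -3.33, RAD51AP1 by -3.94 and BLM by -4.06 on the log2 scale. Strain, library set and the state of the control cells cannot be told apart in this contrast.

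For irradiated HUVEC against HAEC, 23 repair genes responded higher, where 8.85% of all genes did. BARD1 differed by 0.46, BRIP1 by 0.82, BRCA2 by 0.78, RAD51AP1 by 0.69 and BLM by 0.68. Genes that followed in few comparisons differed too, ATM by 0.27, CHEK2 by 0.55 and RAD51B by 0.34.

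Between the doxorubicin experiments, 21 repair genes responded higher in the repeat than in the first, where 2.59% of all genes did. BARD1 differed by 1.66, BRIP1 by 2.55, BRCA2 by 2.50, RAD51AP1 by 3.81 and BLM by 3.47. Experiment, library set and the state of the control cells cannot be told apart here.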

How the results depend on the processing

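No result changed direction under any alternative run. Most counts kept within 1.5 times of the value reported; the exceptions follow, and for each the cause was not tested. In the first doxorubicin experiment 0 repair genes rose, 1 with the replicate block and 3 when the compared groups were fitted alone. In the repeat 1 rose, 2 with DESeq2 size factors, without the filter on low counts, with DESeq2's test or with the replicate block, and 1 to 2 with 1 library left out. None fell in the repeat, 1 without the filter, 2 with DESeq2's test, and 0 to 1 with 1 library left out. For irradiated against late-passage IMR-90 no gene was lower, 1 with size factors, without the filter, with DESeq2's test or with the compared groups alone, 0 to 2 with 1 library left out, and 3 to 10 were higher. For unirradiated against proliferating WI-38 18 were higher and 9 lower with the compared groups alone, 7 were lower without the filter, and 1 to 2 with 1 library left out. With 1 library left out, the genes that fell numbered 2 to 4 in irradiated and 3 to 4 in late-passage IMR-90 and 7 to 11 in late-passage WI-38. Those that rose numbered 2 to 8 with HRAS(G12v) and 1 to 2 in irradiated WI-38. In the difference of HUVEC against HAEC 15 to 23 were higher and 0 to 1 lower. ATM followed in 0 comparisons and RAD50 in 2 without the filter. The guide genes' median in the first doxorubicin experiment was -2.55 with replication genes alone, and in irradiated WI-38 it was -3.64 with mitosis genes alone.

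Same-numbered replicates did not deviate together (correlations from -0.0575 to 0.0784), and the labels state no pairing. With 2 libraries in most groups these correlations cannot exclude a pairing. With the replicate block 31 genes fell in HAEC, 29 in HUVEC, 18 in irradiated WI-38 and 11 in late-passage WI-38, and 18 were higher in HUVEC against HAEC. That fit ended the calls of ATM, PALB2 and FANCF in HAEC (adjusted p 0.108 for ATM and 0.0548 for PALB2 by edgeR), RAD50 in HUVEC (0.0755), FANCF in irradiated WI-38 and CHEK1 and RBBP8 in late-passage WI-38. Of the calls among the 35, those kept with any 1 library left out numbered 31 of 34 in HAEC, 30 of 31 in HUVEC, 23 of 30 in irradiated and 14 of 23 in late-passage IMR-90, 23 of 26 after doxorubicin, 20 of 24 with HRAS(G12v), 11 of 21 in irradiated and 7 of 13 in late-passage WI-38. A group reduced to 1 library was assumed to have the spread of the set's other groups. With 2 libraries in most groups and a variation of 38.1% in the second WI-38 set, moderate changes there can be missed.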

Other observations

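Excision repair needs no sister chromatid. Of its 27 genes, 6 rose and 10 fell in irradiated HAEC, 7 and 9 in irradiated HUVEC, 10 and 6 in irradiated IMR-90, 7 and 7 in late-passage IMR-90, 4 and 7 in the first doxorubicin experiment and 10 and 5 with HRAS(G12v). In irradiated WI-38 0 rose and 2 fell, in late-passage WI-38 2 and 1, and none was called in the repeat. Of all genes 19.7% rose and 19.9% fell in HAEC, 18.6% and 20.1% in HUVEC, 26.6% and 22.5% in irradiated IMR-90, 26.6% and 23.5% in late-passage IMR-90, 13.6% and 13.2% in the first doxorubicin experiment and 27.1% and 18.9% with HRAS(G12v); the list was not tested against them. NEIL3, a glycosylase active in dividing cells, fell by 3.79 ± 0.27 on the log2 scale in the first doxorubicin experiment, 2.94 ± 0.30 with HRAS(G12v) and 1.74 ± 0.08 in HAEC. ERCC6, of repair coupled to transcription, rose by 0.60 ± 0.032 in HAEC and 0.80 ± 0.14 after doxorubicin, and XPC, which recognises distorted DNA, rose by 0.45 ± 0.041 in HAEC and 0.46 ± 0.041 in HUVEC.

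Of 18 genes that p53 is known to induce, 15 rose and 2 fell in HAEC, 16 and 1 in HUVEC, 15 and 0 in irradiated IMR-90, 12 and 0 in late-passage IMR-90, 14 and 1 in the first doxorubicin experiment, 14 and 0 with HRAS(G12v) and 7 and 0 in irradiated WI-38. In the doxorubicin repeat 0 rose and 1 fell, and in late-passage WI-38 0 rose and 3 fell. The shares of all genes given above beside the excision genes apply here too, and the list was not tested against them. GDF15, a stress cytokine, rose by 4.96 ± 0.16 with HRAS(G12v), 2.71 ± 0.26 in irradiated WI-38 and 1.95 ± 0.14 in the first doxorubicin experiment, and CDKN1A, the cell-cycle inhibitor p21, by 2.395 ± 0.14 with HRAS(G12v) and 1.72 ± 0.14 after doxorubicin.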
